A study of Arabidopsis thaliana with 12 samples.

Results

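Transcript levels were compared between day 2 after the first activation of APETALA1 (AP1) and day 0, before activation, in inflorescences of Arabidopsis thaliana. The comparison rests on 4 of the 12 arrays of the study, chosen by their labels, which name day 0 and day 2, and it covers 20906 tested loci of the 28327 on the array. All plants had the genotype pAP1:AP1-GR ap1-1 cal-1, so that day 2 and day 0 tissue alike carried both mutations and the transgene. Day 2 inflorescences had received daily applications of 2 µM dexamethasone (DEX), with the last of them some hours before collection. Day 0 inflorescences had received a mock solution without DEX and were collected immediately afterwards, according to the methods of the study. Each sample was pooled inflorescence tissue of many plants about a month old, grown at 20 °C in 16 h light and 8 h dark, and 4 biologically independent sets were made. Each array carried the day 2 and the day 0 extract of 1 set, with day 2 in Cy5 in replicates 1 and 3 and in Cy3 in replicates 2 and 4.

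The design sets limits on what the comparison can separate. No mock-treated sample of day 2 was on these arrays, so that AP1 activity, 2 further days of age, DEX itself, repeated drenching with the solution and the time since the last application cannot be told apart. The transgene is driven by the AP1 promoter and is active where that promoter is. The 4 arrays lay on a slide of their own, so that slide and comparison cannot be told apart either. Whole inflorescences were used, in which fewer cells of a type and less RNA per cell cannot be told apart. For replicates 3 and 4 the deposited scanner files did not match the authors' ratios (16.3% and 20.2% of probes equal within 0.0001 on the log10 scale), whereas on the other 10 arrays over 99.9% of probes were equal. The authors' ratios were therefore used throughout, and statements on detection at day 0 rest on the 2 channels of replicates 1 and 2. Correlations between pairs of the 4 arrays lay between 0.840 and 0.895 across probes.

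AP1 is a MADS-domain transcription factor that gives a young meristem its floral identity and later takes part in specifying sepals and petals. In the ap1 cal double mutant, meristems keep proliferating as inflorescence meristems and form a cauliflower-like mass. Fusion to the hormone-binding domain of the glucocorticoid receptor (GR) keeps AP1 in the cytoplasm until DEX is given, after which many meristems start floral development together. Floral organ identity then depends on MADS-domain proteins that act in combinations: APETALA3 (AP3) and PISTILLATA (PI) for petals and stamens, AGAMOUS (AG) for stamens and carpels, and the SEPALLATA (SEP) proteins as partners in all of these.

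Throughout, a change is the log2 ratio of day 2 over day 0 at the brightest probe of a gene, with the standard error of the fit over all 12 arrays. A probe was called when its adjusted p was below 0.05 and its change at least 1.8-fold, and a gene when any of its probes was called. Several probes were tested for 3661 of the 20906 genes, and a list rich in such genes has more chances of a call. Of the genes tested, 3049 were called, which is 14.6% of all. A higher level at day 2 was called for 1832 genes (8.76%) and a lower level for 1215 genes (5.81%), and 2 genes had probes called both ways. The median change over all genes was -0.10. Probes with no locus in their name stood outside these counts, and 3.98% of them were called higher and 16.3% lower. At the brightest probe, 1728 of 1770 higher genes were higher on 4 of 4 arrays, and 1095 of 1133 lower genes were lower on 4 of 4.

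The direction of change went with its size. Between 1.8-fold and 2-fold, 187 genes were higher and 325 lower. Between 2-fold and 4-fold the numbers were close, at 762 higher and 709 lower. Beyond 32-fold there were 162 higher genes and no lower gene, as the bar chart of fold classes shows. Higher genes had a median change of 1.88 and lower genes one of -1.18. Their median log2 processed intensities were 8.72 and 7.18, against 10.51 over all genes tested. The part of dim signal in the size of the changes was not tested. In 393 of the higher genes the day 0 channel was not well above background in either replicate, and in 169 of the lower genes no day 2 channel was. For such genes the ratio depends on values near background, and at most a lower bound of the fold difference is given below. Among them, 34 higher and 5 lower genes were well above background at neither day and have no bound. The bound was computed from background-corrected intensities of the matching arrays, with 50 added to each channel. In it the dim side was raised to the lowest signal that was well above background on each array.

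The counts also depend on the processing. An alternative fit changed background correction (normexp, with 50 added to each channel), normalisation (loess of the scanner intensities) and the arrays together. This alternative fit was possible for replicates 1 and 2 alone among these 4 arrays. It called 1160 genes higher and 303 lower, whereas the authors' ratios of the same 2 arrays gave 1559 higher and 995 lower. Below it is called the background-corrected fit, and named genes not called in it are given with its value.

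**Figure D1:**
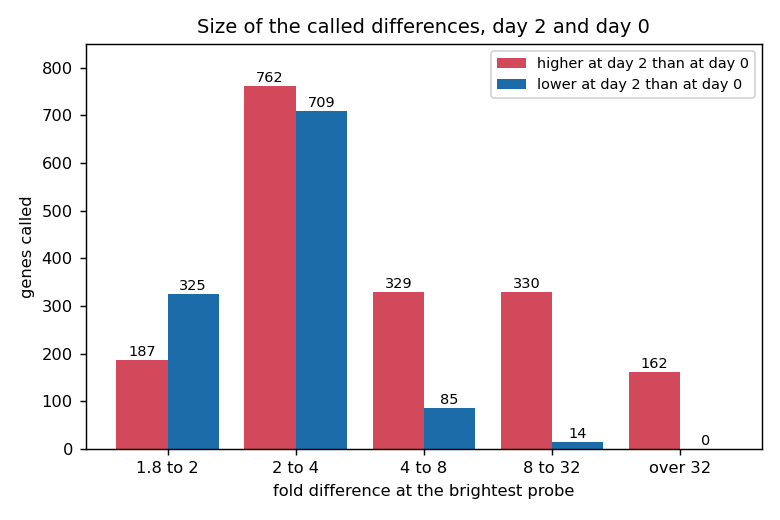
Number of genes called at the brightest probe (vertical axis) by fold difference between day 2 and day 0 (horizontal axis), with genes higher at day 2 in red and genes lower at day 2 in blue. Lower genes outnumber higher ones below 2-fold (325 and 187), and beyond 8-fold there are 330 and 162 higher genes but 14 and 0 lower ones.

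Most genes for floral organ identity were higher at day 2. Of the 14 MADS-box genes of this list on the array 13 were tested, of which 7 were called higher (53.8%, against 8.76% of all genes) and 1 lower, with a median change of 0.89. AP3 (AT3G54340), the B-class gene needed for petals and stamens, had log2 ratios of 5.42, 4.96, 5.97 and 5.28 on the arrays of replicates 1 to 4, a change of 5.41 ± 0.12 (SE, n = 4, adjusted p = 4.48e-11). Its processed intensities were 20739.7 and 16892 at day 2, against 485 and 542 at day 0, in replicates 1 and 2. All 4 ratios of AP3 exceeded the ratio of every other gene of the list on every array. The other AP3 probes gave changes of 2.34 and 3.75, so that the size of its increase differed between probes while the direction did not.

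AG (AT4G18960), the C-class gene of stamens and carpels, had ratios of 2.91, 2.88, 3.07 and 2.66, a change of 2.88 ± 0.10 (SE, n = 4, adjusted p = 1.12e-09). SEP3 (AT1G24260) had ratios of 3.66, 2.95, 3.77 and 2.40, a change of 3.19 ± 0.10 (SE, n = 4, adjusted p = 3.06e-10). These ratios were well apart from 0 on each array, and those of SEP3 were lower in replicates 2 and 4, in which day 2 was labelled with Cy3. SEP2 (AT3G02310) changed by 1.31 ± 0.07 (SE, n = 4, adjusted p = 1.74e-08) and SEP1 (AT5G15800) by 0.96 ± 0.11 (SE, n = 4, adjusted p = 2.61e-05). PI (AT5G20240), the partner of AP3, had ratios of 1.06, 0.87, 1.06 and 0.58, a change of 0.89 ± 0.07 (SE, n = 4, adjusted p = 1.05e-06), and was not called without replicate 2 (0.83). The 2 B-class partners thus differed in size: each AP3 ratio was at least 4.96, and each PI ratio at most 1.06.

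Other members of the list did not follow this direction. AP1 itself (AT1G69120) had ratios of 0.33, 0.21, 0.22 and 0.48, a change of 0.31 ± 0.09 (SE, n = 4, adjusted p = 0.00957), below the 1.8-fold limit. Whether its probes also read the AP1-GR transgene is not known from the files. SEP4 was at 0.15 ± 0.08, SHATTERPROOF1 (SHP1) at 0.19 ± 0.17 and SHATTERPROOF2 (SHP2) at 0.10 ± 0.16, with adjusted p-values of 0.134, 0.376 and 0.636. AGL6 was at -0.75 ± 0.13, with an adjusted p of 0.00049 but less than 1.8-fold. SEEDSTICK (STK, AT4G09960), an ovule identity gene, was the member called lower, with ratios of -1.81, -1.99, -2.96 and -1.82 and a change of -2.14 ± 0.36 (SE, n = 4, adjusted p = 0.000414). TT16 (AT5G23260), a B-sister gene of the seed coat, was called higher at 1.74 ± 0.30, but it was well above background in 1 of 6 day 2 channels and in neither day 0 channel, and its bound was 1.13-fold. STK (-0.64) and TT16 (0.17) were not called in the background-corrected fit.

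**Figure D2:**
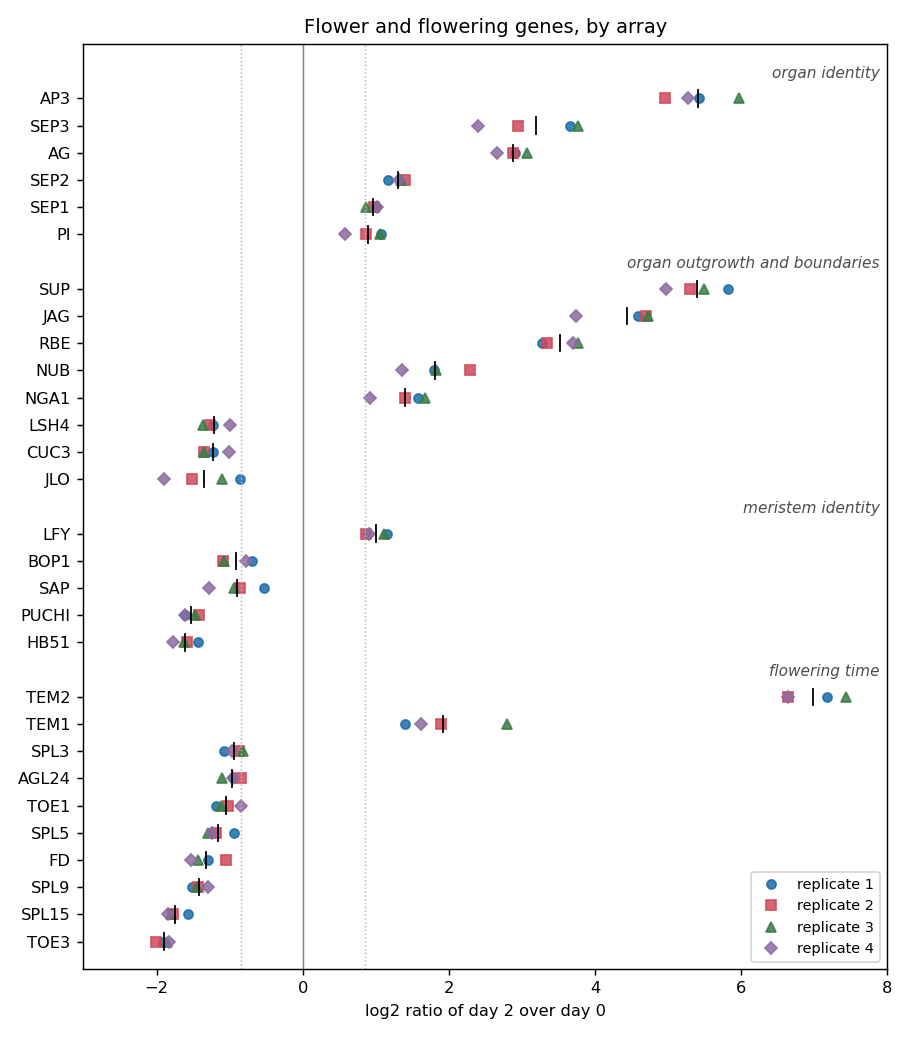
Log2 ratios of day 2 over day 0 (horizontal axis) of a selection of the called genes in the lists of floral organ identity, organ outgrowth and boundaries, meristem identity and flowering time, with 1 marker for each of the 4 replicate arrays, a black tick at the fitted change and dotted lines at 1.8-fold. At their brightest probes AP3, SUP, JAG and TEM2 lie between 3.7 and 7.5 on every array, whereas the flowering time genes shown other than TEM1 and TEM2 lie below 0 on every array. The ratios of SUP rest on day 0 values near background, and a bound only is given for it in the text. Other probes of AP3 and JAG gave smaller changes.

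Genes that shape and separate the organs of the flower included large increases. SUPERMAN (SUP, AT3G23130), which limits stamen number at the border with the carpels, had ratios of 5.82, 5.30, 5.50 and 4.98 (adjusted p = 8.21e-11). Its day 0 intensities of 4.00 and 4.61 were not well above background, against 226 and 182 at day 2, which makes it at least 2.40-fold higher. RABBIT EARS (RBE, AT5G06070), a petal gene, changed by 3.52 ± 0.18 (SE, n = 4, adjusted p = 1.53e-08) and JAGGED (JAG, AT1G68480), which promotes organ outgrowth, by 4.44 ± 0.16 (SE, n = 4, adjusted p = 1.24e-09). The other JAG probes gave changes of 3.86 and 1.25, so that the size of its increase differed between probes. NUBBIN (NUB), the closest relative of JAG, changed by 1.81 ± 0.15 and NGATHA1 (NGA1) by 1.39 ± 0.12. HECATE1 (HEC1), a gene of carpel tissues, was called higher but was not well above background at day 0 and had a bound of 1.12-fold. Of the 20 later organ genes, 19 were tested, with a median of -0.03. Of these, 4 were called higher and 4 lower (each 21.1%, against 8.76% and 5.81% of all genes). The background-corrected fit called 3 higher and none lower. STYLISH1 (STY1) was among those called lower, at -1.01 ± 0.12. HEC1 (0.16) and STY1 (-0.74) were not called in the background-corrected fit, and HEC1 (2.17) and STY1 (-0.83) were not called either with the authors' ratios of replicates 1 and 2 alone.

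More boundary genes were called lower than higher. Of 12 organ boundary genes tested, 5 were called lower (41.7%, against 5.81% of all genes) and 2, SUP and RBE, higher. The background-corrected fit called 2 boundary genes lower. CUP-SHAPED COTYLEDON3 (CUC3) had ratios of -1.23, -1.36, -1.35 and -1.0, a change of -1.23 ± 0.13 (SE, n = 4, adjusted p = 8.84e-06). Its relatives CUC1 and CUC2 were at 0.20 ± 0.11 and -0.12 ± 0.09, with ratios on both sides of 0. JAGGED LATERAL ORGANS (JLO) changed by -1.35 ± 0.11 (SE, n = 4, adjusted p = 8.07e-07), with ratios of -0.86, -1.52, -1.11 and -1.90, and LIGHT-SENSITIVE HYPOCOTYLS4 (LSH4) by -1.21 ± 0.14 (SE, n = 4, adjusted p = 2.53e-05). LSH4 (-0.69) was not called in the background-corrected fit. Of 18 genes of adaxial and abaxial polarity, 1 was called, as lower (5.56%, against 5.81% of all genes). That gene, INNER NO OUTER (INO), which is known from ovule integuments, changed by -2.33 ± 0.38 (SE, n = 4, adjusted p = 0.000323). Among 9 GROWTH-REGULATING FACTOR genes and 3 coactivators, GRF6 was called lower at -1.25 ± 0.17 and GRF4 at a probe other than its brightest, where it was at -0.80 ± 0.06, and the other 10 were not called. These 2 are 16.7% of the list, against 5.81% of all genes called lower, and without replicate 2, 1 of the 2 remained called.

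Among 11 regulators of floral meristem identity, 1 was called higher (9.09%, against 8.76% of all genes). Another 4 were called lower (36.4%, against 5.81% of all genes), or 2 in the background-corrected fit. LEAFY (LFY, AT5G61850), the master regulator that acts with AP1, had ratios of 1.15, 0.87, 1.11 and 0.90, a change of 1.01 ± 0.10 (SE, n = 4, adjusted p = 5.44e-06). LATE MERISTEM IDENTITY1 (named HB51 in the gene table, AT5G03790) had ratios of -1.44, -1.59, -1.62 and -1.78, a change of -1.61 ± 0.11 (SE, n = 4, adjusted p = 1.69e-07). PUCHI (AT5G18560), which represses bract formation, had ratios of -1.61, -1.42, -1.47 and -1.62, a change of -1.53 ± 0.12 (SE, n = 4, adjusted p = 8.47e-07). LFY and both of these genes thus moved in opposite directions on each of the 4 arrays. BLADE-ON-PETIOLE1 (BOP1) changed by -0.91 ± 0.15 and STERILE APETALA (SAP) by -0.90 ± 0.17. These were the smallest called decreases of the list, and they depended on single arrays: BOP1 was not called without replicate 3 (-0.79) nor SAP without replicate 4 (-0.78). BOP1 (-0.68) and SAP (-0.60) were not called in the background-corrected fit, and SAP (-0.69) was not called either with the authors' ratios of replicates 1 and 2 alone. TERMINAL FLOWER1 (TFL1), which keeps the inflorescence meristem from turning floral, was at -0.43 ± 0.11, CAULIFLOWER (CAL) at -0.72 ± 0.07 and FRUITFULL (AGL8) at 0.05 ± 0.09, none of them called. The cal-1 mutation is present in all samples.

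None of the core genes of the shoot meristem was called. SHOOT MERISTEMLESS (STM) was at -0.53 ± 0.07 with an adjusted p of 4.12e-05, below the fold limit, WUSCHEL (WUS) at -0.08 ± 0.07, CLAVATA3 (CLV3) at -0.34 ± 0.25 and KNAT1 at -0.09 ± 0.09. The ratios of WUS were 0.08, -0.22, 0.18 and -0.38, on both sides of 0 and positive in replicates 1 and 3, in which day 2 was labelled with Cy5. Of 17 shoot meristem regulators, ATH1, a homeodomain gene of the shoot apex, was the only one called higher, at 1.09 ± 0.07 (SE, n = 4, adjusted p = 2.89e-07). The homeodomain gene PNF was the only one called lower, at a probe other than its brightest. Each is 5.88% of the list, against 8.76% of all genes called higher and 5.81% called lower. Without replicate 3 no gene of this list was called lower, and 2 were without replicate 1 or replicate 4. All 6 markers set for inflorescence and floral meristems (STM, KNAT1, CLV3, WUS, LFY and UFO) were detected at both time points, with UFO at -0.14 ± 0.12.

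Flowering time regulators were mostly lower at day 2. Of 27 on the array, 26 were tested, 15 were called lower (57.7%, against 5.81% of all genes) and 2 higher, and the median was -0.71. Of the lower genes, SPL4, AGL42, AGL71, FLC and SNZ were called only at a probe other than their brightest. At its brightest probe SNZ was at -0.42, with an adjusted p of 0.110 and ratios on both sides of 0. The background-corrected fit called 8 lower. The lower genes included activators of flowering. SPL15 (AT3G57920), SPL9 (AT2G42200), SPL5 and SPL3, SQUAMOSA promoter-binding proteins that promote the floral transition, changed by -1.74 ± 0.14, -1.42 ± 0.10, -1.16 ± 0.08 and -0.93 ± 0.09. FD (AT4G35900), the transcription factor with which the FT protein acts at the shoot apex, had ratios of -1.29, -1.05, -1.43 and -1.53, a change of -1.33 ± 0.09 (SE, n = 4, adjusted p = 2.92e-07). FT itself, usually studied in leaves, had ratios of -1.54, -1.55, -1.48 and -0.50, a change of -1.27 ± 0.24, with 1 array much nearer to 0 than the other 3. AGL24, a MADS-box gene that AP1 is known to repress, changed by -0.96 ± 0.06 (SE, n = 4, adjusted p = 7.24e-08). SOC1 and SVP, further MADS-box regulators of flowering time, were at -0.54 ± 0.08 and -0.84 ± 0.10 and were not called. FT (-0.48), AGL24 (-0.84) and TOE1 (-0.71) were not called in the background-corrected fit.

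Repressors of flowering of the TARGET OF EAT and TEMPRANILLO families did not move together. TARGET OF EAT3 (TOE3, AT5G67180), an AP2-type repressor, had ratios of -1.91, -2.0, -1.85 and -1.83, a change of -1.90 ± 0.15 (SE, n = 4, adjusted p = 6.55e-07), and TOE1 changed by -1.04 ± 0.11. TEMPRANILLO2 (TEM2, AT1G68840), a repressor of FT, had ratios of 7.18, 6.64, 7.44 and 6.65, a change of 6.98 ± 0.30 (SE, n = 4, adjusted p = 4.09e-09). Its intensities were 2579.7 and 2569.9 at day 2, against 17.8 and 25.7 at day 0. TEM1 changed by 1.92 ± 0.25, with ratios of 1.4, 1.89, 2.79 and 1.62. Both TEM genes were called lower in the following step, from day 2 to day 4 (-3.26 and -1.3), and higher again from day 4 to day 8 (2.15 and 1.03). Neighbouring steps share an extract on opposite sides of their ratios, which favours such turns, so nothing is read from them.

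Of 15 gibberellin genes tested, 3 were called higher (20%, against 8.76% of all genes), all of them 2-oxidases. Another 2 were called lower (13.3%, against 5.81% of all genes), both of them 20-oxidases. GA2OX1 (AT1G78440) and GA2OX6 (AT1G02400), 2-oxidases that inactivate gibberellins, had ratios of 4.83, 4.72, 4.87 and 5.03 and of 4.79, 5.91, 6.72 and 6.11. Neither was well above background at day 0, so that they were at least 3.05-fold and 2.72-fold higher (adjusted p = 1.94e-09 and 5.24e-08). GA2OX2 changed by 1.49 ± 0.16. GA20OX1 (AT4G25420), a 20-oxidase of gibberellin synthesis, had ratios of -1.61, -1.22, -2.15 and -1.70, a change of -1.67 ± 0.14 (SE, n = 4, adjusted p = 1.32e-06), and GA20OX2 changed by -1.18 ± 0.11. The other 10 gibberellin genes tested were not called. Of the 32 auxin genes, 5 were called higher and 2 lower (15.6% and 6.25%, against 8.76% and 5.81% of all genes). IAA2, an early auxin response gene, changed by 2.39 ± 0.15, and the GH3 auxin-conjugating genes GH3.2 and GH3.5 by 1.52 ± 0.18 and 1.2 ± 0.11, against -2.25 ± 0.26 for IAA29 and -0.94 ± 0.20 for the auxin synthesis gene YUC2. Among 18 cytokinin genes tested, 2 were called higher and 3 lower (11.1% and 16.7%, against 8.76% and 5.81% of all genes). They included CKX4, a cytokinin oxidase, at 1.43 ± 0.18, and LOG7, a cytokinin-activating enzyme, at -0.88 ± 0.08. Without replicate 1 or replicate 2, 1 cytokinin gene was called higher, and in the background-corrected fit none was and 1 was lower. GA20OX2 (-0.51), YUC2 (-0.36), CKX4 (0.67) and LOG7 (-0.75) were not called in the background-corrected fit, and YUC2 (-0.84) was not called either with the authors' ratios of replicates 1 and 2 alone.

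The 15 largest fitted increases lay between 7.86 and 10.09 on the log2 scale and held no gene of the floral lists. PHT3;2 (AT3G48850), a mitochondrial phosphate carrier, had ratios of 10.32, 8.27, 11.09 and 10.69, a change of 10.09 ± 0.35 (SE, n = 4, adjusted p = 1.01e-09), or 10.70 without replicate 2. Its intensities were 10499 and 9829 at day 2, against 8.23 and 31.8 at day 0. AT3G16530 changed by 9.10 ± 0.29. AT4G12735, not well above background at day 0, was at least 26.1-fold higher. AGC2-1 (AT3G25250), the protein kinase known as OXI1 in oxidative burst signalling, changed by 8.40 ± 0.22 (SE, n = 4, adjusted p = 1.79e-10). ERF1 (AT3G23240), an ethylene response factor, had ratios of 7.75, 7.55, 8.33 and 8.09, a change of 7.93 ± 0.36 (SE, n = 4, adjusted p = 6.53e-09). AOX1D (AT1G32350), an alternative oxidase, was at least 9.11-fold higher, with ratios of 8.16, 7.95, 8.92 and 8.00. The glutathione S-transferases GSTU9, GSTF7 and GSTU4 had ratios of 8.86, 8.14, 7.82 and 7.96, of 7.94, 7.51, 8.64 and 8.42 and of 7.28, 7.25, 8.23 and 8.68. PP2-B14, AT4G28460, AT3G54150, AT2G23270, AT3G15356 and AT4G08555 completed the 15. In 7 of the 15, day 0 was not well above background, with bounds of 9.11-fold to 26.1-fold, so that their place among the 15 rests on ratios near background and is not established. All 15 were called lower from day 2 to day 4, where 9.14% of all genes were called in either direction. That step carries the same day 2 extracts in its denominator, so that a fall is favoured by the choice of the genes and nothing is read from it. From day 4 to day 8, in which 18.3% of all genes were called in either direction, 13 of the 15 were called higher. This last step shares the day 4 extracts with the step before, which favours a rise after a fall, so nothing is read from it either.

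**Figure D3:**
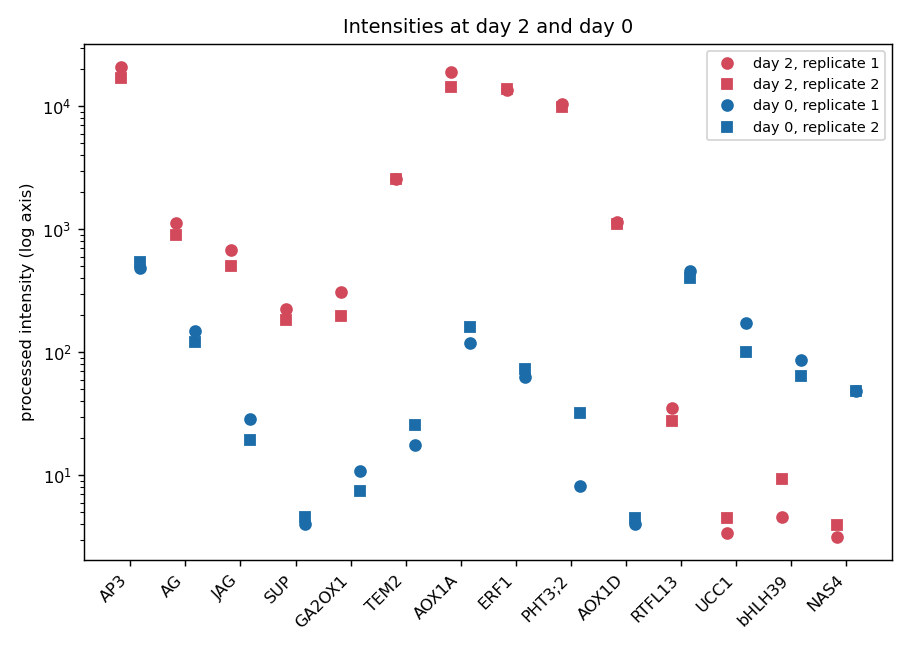
Processed intensities (vertical log axis) of 14 genes at day 2 (red) and day 0 (blue) in replicates 1 and 2, whose scanner files match the authors' ratios. Only the 2 days of a gene are to be compared, since probes differ in brightness. ERF1 reads 13678 and 13726 at day 2, against 63.6 and 73.1 at day 0, and UCC1 reads 3.37 and 4.50 at day 2, against 173 and 100.2 at day 0.

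Ethylene genes were higher at day 2 from synthesis to response. Ethylene is a gaseous hormone made from ACC by ACC synthases (ACS) and ACC oxidases. ACS2 (AT1G01480) had ratios of 6.43, 6.25, 7.32 and 6.99, a change of 6.75 ± 0.26 (SE, n = 4, adjusted p = 1.78e-09), and ACS6 of 0.38, 1.99, 2.30 and 1.8, a change of 1.62 ± 0.22, with replicate 1 much lower than the other 3. The ACC oxidase gene EFE (AT1G05010) changed by 3.81 ± 0.19. In all, 6 of 10 synthesis genes were tested and 4 were called higher (66.7%, against 8.76% of all genes). Of the 20 response genes 17 were tested, all 17 of which were well above background at day 0 and were called higher, at 0.87 to 7.93 with a median of 2.77. The lowest of them, ERF4, was not called without replicate 3 (0.73). ERF2 was at 4.80 ± 0.25, ORA59 at 2.84 ± 0.31 and PR4 at 3.35 ± 0.27. The receptor genes ERS1 and ETR2, which ethylene is known to induce, changed by 2.16 ± 0.16 and 1.56 ± 0.19. ERF4 (0.77) was not called in the background-corrected fit, nor with the authors' ratios of replicates 1 and 2 alone (0.72).

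Jasmonate genes followed, with 15 of 23 called higher (65.2%, against 8.76% of all genes), 1 lower and a median of 1.46. Jasmonate is made from plastid lipids by lipoxygenases (LOX), allene oxide synthase and allene oxide cyclase (AOC). AOC2 (AT3G25770) had ratios of 3.44, 4.6, 3.59 and 4.47, a change of 4.02 ± 0.29 (SE, n = 4, adjusted p = 2.99e-07), and cross-hybridisation with the other AOC genes was not tested. LOX4 changed by 2.65 ± 0.26. JAZ1, a repressor of the pathway that jasmonate itself induces, had ratios of 1.87, 3.56, 3.54 and 3.76, a change of 3.19 ± 0.31, with replicate 1 below the other 3. VSP2, a classical target in leaves, was in contrast called lower at -0.92 ± 0.17, but not without replicate 1 (-0.70).

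Of 15 genes of salicylic acid and camalexin tested, 10 were called higher (66.7%, against 8.76% of all genes) and none lower, and the median was 1.86. Camalexin is the antimicrobial indole of Arabidopsis, and its synthesis genes PAD3 (AT3G26830) and CYP71A13 (AT2G30770) had ratios of 6.67, 6.58, 6.63 and 6.49 and of 5.14, 4.82, 5.24 and 5.52, with changes of 6.59 ± 0.26 and 5.18 ± 0.31. PR5, a pathogenesis-related gene, changed by 4.12 ± 0.16. ICS1, which makes the salicylic acid of defence, was at -0.72 ± 0.07 and was not called.

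Mitochondrial stress genes had a median of 3.28 over 12 genes tested of 15, with 10 called higher (83.3%, against 8.76% of all genes) and none lower. Of these 12, AOX1D and NDB4 were not well above background at day 0. AOX1A (AT3G22370), the main alternative oxidase, had ratios of 7.31, 6.48, 7.81 and 7.46, a change of 7.26 ± 0.21 (SE, n = 4, adjusted p = 2.82e-10), with intensities of 18910.5 and 14457 at day 2, against 119.5 and 162 at day 0. NDB4, NDB2 and NDA2, alternative NADH dehydrogenases, had ratios of 6.16, 5.10, 5.94 and 4.78, of 1.84, 1.43, 2.52 and 2.08 and of 1.4, 0.88, 1.5 and 0.83, and NDB4 was at least 2.75-fold higher. The AAA-ATPase gene BCS1 changed by 5.42 ± 0.28, AT5G09570 by 4.59 ± 0.15 and AT2G21640 by 3.36 ± 0.13. NAC013, a regulator of such genes, changed by 3.2 ± 0.15, whereas its relative NAC017, known to act through cleavage of a membrane-bound protein, was at 0.13 ± 0.08.

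In the list of OXI1 and MAP kinase genes, 7 of 14 were called higher (50%, against 8.76% of all genes). MAPKKK19 had ratios of 5.12, 5.04, 5.16 and 4.34, a change of 4.91 ± 0.23, and MAPKKK21, not well above background at day 0, was at least 2.46-fold higher. MKK9 was at 2.91 ± 0.17, MPK3 at 1.75 ± 0.13 and MPK11 at 2.56 ± 0.16. MPK6, the close partner of MPK3, had ratios of 0.00, 0.31, 0.16 and 0.18, a change of 0.16 ± 0.06, and was not called.

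Genes known for rapid responses to touch and wounding were called higher in 7 of 9 cases (77.8%, against 8.76% of all genes), with a median of 3.1. On the single arrays the medians were 2.30, 3.46, 4.31 and 3.52 for replicates 1 to 4. XTH22 (TCH4), a cell wall enzyme gene, had ratios of -0.25, 2.35, 4.31 and 3.52, so that replicate 1 was below 0 while the others were above 2.3, and its change was 2.48 ± 0.54 (SE, n = 4, adjusted p = 0.00256). TCH3 (AT2G41100) had ratios of 3.31, 3.46, 4.36 and 4.87, a change of 4.00 ± 0.30. TCH2 had ratios of -1.17, -0.79, 0.11 and 0.42, with both signs, and was not called. The zinc finger genes STZ and ZAT12 changed by 4.99 ± 0.33 and 4.67 ± 0.30 and WRKY40 by 5.36 ± 0.28. In calmodulin-like genes, several of which are calcium-responsive and 3 of which are also in the touch list, 9 of 13 were called higher. This is 69.2%, against 8.76% of all genes. Of the 10 well above background in a day 0 channel, 6 were called higher. Among the 9 was CML41 with ratios of 5.37, 5.57, 7.01 and 5.30 and a bound of 5.14-fold. The background-corrected fit called 5 touch genes higher and 1 lower, and 6 calmodulin-like genes higher and 1 lower. XTH22 (1.00) was not called in the background-corrected fit, nor with the authors' ratios of replicates 1 and 2 alone (1.05).

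In gene families known to respond to stress, part of the members were called. A probe entered the test through any time point, so that members dim at day 0 could enter by being bright later. Of 60 WRKY transcription factor genes tested of 71, 23 were called higher (38.3%, against 8.76% of all genes). Another 6 were lower (10%, against 5.81%), or 1 in the background-corrected fit, and the median was 0.38. Of the 52 WRKY genes well above background in a day 0 channel, 18 were called higher. WRKY30 (AT5G24110) had ratios of 6.81, 6.80, 7.40 and 9.09, a change of 7.52 ± 0.32 (SE, n = 4, adjusted p = 3.83e-09). WRKY75, WRKY33 and WRKY53 changed by 5.72 ± 0.32, 4.14 ± 0.27 and 1.04 ± 0.11, and WRKY49 and WRKY65 were called lower at -1.53 ± 0.30 and -1.4 ± 0.13. Of 38 tau and phi glutathione S-transferases, which detoxify by conjugation, 23 were called higher and 4 lower, or 1 lower in the background-corrected fit, with a median of 1.69. GSTF14 was at the lower end, at -2.58 ± 0.57, and GSTF7 was the highest of those detected at day 0, at 8.13 ± 0.29. Near-identical members, such as GSTF6 and GSTF7, GSTF2 and GSTF3 or GSTU3 and GSTU4, may share signal between probes, so that these counts are not counts of independent genes. WRKY53 (0.76), WRKY49 (-0.30) and GSTF14 (-0.60) were not called in the background-corrected fit.

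**Figure D4:**
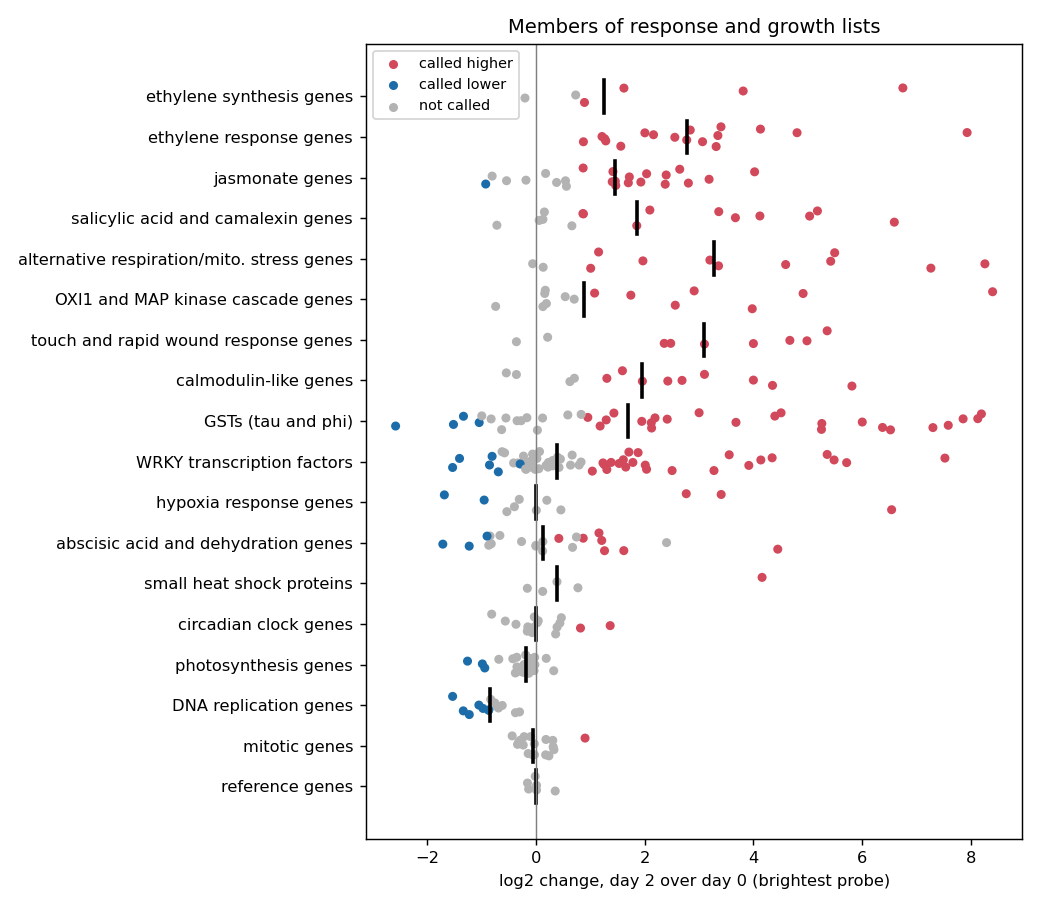
Log2 change of day 2 over day 0 at the brightest probe (horizontal axis) for the tested members of 18 gene lists, with a black tick at the list median, red for genes called higher, blue for genes called lower and grey for the others. Ethylene response genes lie between 0.87 and 7.93 and are red without exception, and mitotic and reference genes lie near 0 with 1 gene called.

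Responses to oxygen shortage and to drought were mixed. Of 11 hypoxia genes tested, 3 were called higher and 2 lower (27.3% and 18.2%, against 8.76% and 5.81% of all genes). Their median was 0.01, and 1 was lower without replicate 2 or replicate 3. HRE2, an ethylene response factor of the low-oxygen response, changed by 6.54 ± 0.29, PDC1, a pyruvate decarboxylase, by 3.41 ± 0.18 and the haemoglobin gene HB1 by 2.77 ± 0.16. The alcohol dehydrogenase gene ADH1 was at -0.39 ± 0.10 and was not called, and the sucrose synthase gene SUS4 was called lower at -1.68 ± 0.25. Of 22 genes of abscisic acid and dehydration, 7 were called higher (31.8%), or 4 in the background-corrected fit, and 3 lower (13.6%), with a median of 0.13. XERO2, a dehydrin, had ratios of 3.16, 3.77, 4.42 and 6.45, a change of 4.45 ± 0.45, or 3.69 without replicate 4. DREB1A and COR15A, from the cold response, were lower at -1.71 ± 0.27 and -1.23 ± 0.24, and the genes called lower numbered 2 without replicate 1 and 5 without replicate 4. HSP23.6-MITO, a mitochondrial small heat shock protein, was the only 1 of 5 small heat shock genes called (20%), with a bound of 1.67-fold. Without replicate 1 or replicate 2, 2 were called. SUS4 (-0.56), COR15A (-0.64) and HSP23.6-MITO (0.74) were not called in the background-corrected fit.

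Senescence genes were called higher in 6 of 7 cases (85.7%, against 8.76% of all genes). SAG21 (AT4G02380) had ratios of 6.87, 6.05, 6.79 and 6.24, a change of 6.49 ± 0.18, and the transcription factor gene ORE1 had ratios of 3.92, 3.70, 5.14 and 4.99, a change of 4.44 ± 0.27. SAG13 was not well above background at day 0 and was at least 4.50-fold higher. SEN1 had ratios of -1.55, 0.60, -0.13 and -1.48, with both signs, and was not called. Of 4 nitrilase genes, 3 were called higher (75%), or 2 when replicate 2, 3 or 4 was left out, and 1 in the background-corrected fit. Of the 2 nitrilase genes well above background in a day 0 channel, 1 was called higher. NIT4 changed by 6.36 ± 0.35, whereas NIT1 was at 0.56 ± 0.10 and was not called. Among glucosinolate genes, the regulators of the indole branch moved apart: MYB51 changed by 6.21 ± 0.26 and MYB34 was called lower at -0.89 ± 0.25, but not without replicate 1 (-0.54). MYB28, the regulator of the aliphatic branch, was at -0.78 ± 0.10 and was not called, and CYP83B1 and CYP83A1, which feed the indole and the aliphatic branch, changed by 3.2 ± 0.34 and -1.45 ± 0.32. Of 11 genes of this list tested, 3 were called higher and 2 lower (27.3% and 18.2%, against 8.76% and 5.81% of all genes). Without replicate 3, 5 were called lower, and none was in the background-corrected fit. MYB34 (-0.81) and CYP83A1 (-0.59) were not called in the background-corrected fit.

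The 15 largest fitted decreases lay between -2.99 and -4.46, and 7 of them were not well above background at day 2 in any of 6 channels, with bounds of 1.24-fold to 2.1-fold. UCC1 (AT2G32300), an uclacyanin, had ratios of -5.68, -4.48, -3.59 and -4.11 and was at least 2.1-fold lower. RTFL13 (AT3G23635), of a family of small peptides that restrain cell proliferation, had ratios of -3.72, -3.85, -4.33 and -4.79, a change of -4.17 ± 0.26 (SE, n = 4, adjusted p = 8.10e-08). Its intensities were 35.0 and 27.6 at day 2, against 461 and 399 at day 0. NAS4 and bHLH39, genes of iron homeostasis, had ratios of -3.94, -3.64, -4.53 and -3.18 and of -4.26, -2.80, -4.32 and -3.36, with bounds of 1.44-fold and 1.39-fold. MIOX4, a myo-inositol oxygenase, changed by -3.1 ± 0.66, with the widest error of the 15. The others were AT5G52390, AT2G28970, AT4G20800, AT1G70270, AT4G35810 and AT5G58400, and, with bounds only, AT1G77160, AT1G67640, AT3G51070 and AT4G23340. In the step from day 2 to day 4, in which 9.14% of all genes were called in either direction, 2 of the 15 were called lower and 2 higher. That step carries the same day 2 extracts in its denominator, so that a rise is favoured by the choice of the genes. From day 4 to day 8, in which 18.3% of all genes were called in either direction, 4 of the 15 were called higher and 2 lower. NAS4 (-0.53), bHLH39 (-0.47), MIOX4 (-1.61), AT1G77160 (-0.66), AT1G67640 (-0.31), AT3G51070 (-0.31) and AT4G23340 (-0.47) were not called in the background-corrected fit, and MIOX4 (-2.49) was not called either with the authors' ratios of replicates 1 and 2 alone.

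Of 14 DNA replication genes, 7 were called lower (50%, against 5.81% of all genes) and none higher, with a median of -0.85. CDC6, a licensing factor, changed by -1.53 ± 0.26, ORC1A of the origin recognition complex by -1.34 ± 0.15, the sliding clamp gene PCNA1 by -1.23 ± 0.11 and the helicase gene MCM7 by -1.05 ± 0.17. The list median lay close to the fold limit, and 4 of the genes were called lower without replicate 3, or 1 in the background-corrected fit. Of 18 mitotic genes, with a median of -0.05, none was called lower and 1 higher (5.56%, against 8.76% of all genes). This gene, CDC20.1, was called at 0.90 ± 0.10 on 3 arrays, since its spot of replicate 1 was left out as an outlier. Of 9 genes of the G1 phase, 2 were called lower (22.2%, against 5.81% of all genes). CDC6 (-0.29), ORC1A (-0.72), MCM7 (-0.54) and CDC20.1 (0.83) were not called in the background-corrected fit, and MCM7 (-0.84) was not called either with the authors' ratios of replicates 1 and 2 alone. Of 40 xyloglucan endotransglucosylase and expansin genes, which loosen cell walls, 7 were called higher and 10 lower (17.5% and 25%, against 8.76% and 5.81% of all genes). Of the 31 well above background in a day 0 channel, 4 were called higher and 10 lower. Of 27 aquaporin genes 3 were called higher and 3 lower (each 11.1%). XTH15 was called lower at -1.70 ± 0.24, and XTH18 higher with ratios of 1.71, 2.17, 4.14 and 4.64 and a bound of 1.14-fold. Of the cell wall genes, 1 was called higher and 6 lower in the background-corrected fit. XTH18 (0.19) was not called in the background-corrected fit.

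Photosynthesis genes had a median of -0.19 over 25 tested, with none called higher and 3 lower (12%, against 5.81% of all genes). RBCS2B, a small subunit of Rubisco, had ratios of -0.36, -1.42, -1.22 and -2.03, a change of -1.26 ± 0.38, and was not called without replicate 2 (-1.11) or replicate 4 (-0.88). RBCS2B (-0.36) was not called in the background-corrected fit, nor with the authors' ratios of replicates 1 and 2 alone (-0.89). Of these genes 2 were called lower without replicate 1, 1 without replicate 2, and none without replicate 4 or in the background-corrected fit. Of 16 clock genes, 2 were called higher (12.5%, against 8.76% of all genes) and none lower. CCA1, expressed around dawn, changed by 1.37 ± 0.08 (SE, n = 4, adjusted p = 5.19e-08), while its partner LHY was at 0.44 ± 0.13 and GI, of the later part of the day, at -0.15 ± 0.08. Of 16 flavonoid genes tested, 2 were called higher and 2 lower (each 12.5%), or 4 higher without replicate 1. TT7, a flavonoid hydroxylase, changed by -1.71 ± 0.15.

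Marker lists of other tissues were examined for a change in composition. Of 8 vascular markers tested, none was called, with changes between -0.33 (XCP1) and 0.60 (SUC2). None of 4 pollen markers passed the filter on dim probes. Of 5 root markers, 4 were tested and 2 were called higher: PIN2, well above background in 3 of 6 channels at day 2 and in neither at day 0, at 2.36 ± 0.33 with a bound of 1.16-fold, and WOX5, called at a probe other than its brightest, where it was at 0.82 ± 0.29. These are 50% of the root markers tested, against 8.76% of all genes. Without replicate 2 or replicate 4, 1 root marker was called. PIN2 (0.21) was not called in the background-corrected fit. The part of cell composition in the other results was not tested. The 6 reference genes, among them PP2AA3 at -0.16 ± 0.08, were not called.

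The first step was set against the last, from day 4 to day 8, with which it shares no extract. The change differed between these steps at any probe in 3968 genes, 19.0% of those tested (limma contrast within the same fit). The counts for lists take the brightest probe only and are thus not measured like this share. The change differed at that probe in 15 of 17 ethylene response genes, in 11 of 18 mitotic genes and in 1 of 14 DNA replication genes. It also differed in 9 of 11 hypoxia genes, in 19 of 27 aquaporin genes and in 1 of the 12 genes for GRFs and their coactivators. In ERF1 the change from day 0 to day 2 exceeded that from day 4 to day 8 by 5.81 ± 0.51 (SE, adjusted p = 4.09e-06), and in AP3 by 5.46 ± 0.16 (SE, adjusted p = 3.35e-09). Both genes are named here for a large first step, which favours a difference of this sign, so these 2 p-values lend no support. The step from day 2 to day 4 shares the day 2 extracts with the first, so that its values can only be given beside it. Over the 3 steps in order, the list medians were 3.1, -2.07 and 1.57 for touch and wound genes, 3.28, -1.30 and 0.69 for mitochondrial stress genes, 2.77, -1.63 and 0.23 for ethylene response genes and 1.46, -0.33 and 1.85 for jasmonate genes. Floral organ identity genes had medians of 0.89, 0.41 and 0.43 and flowering time regulators of -0.71, 0.09 and 0.18. The medians of the first 4 lists were below 0 at the second step and above 0 again at the third. Such a turn is favoured, since neighbouring steps share an extract on opposite sides of their ratios. The lists were also chosen with earlier results known, so nothing is read from these turns. The median of flowering time regulators turned sign at the second step as well. The median of all genes tested turned at both, at -0.10, 0.06 and -0.08.

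**Figure D5:**
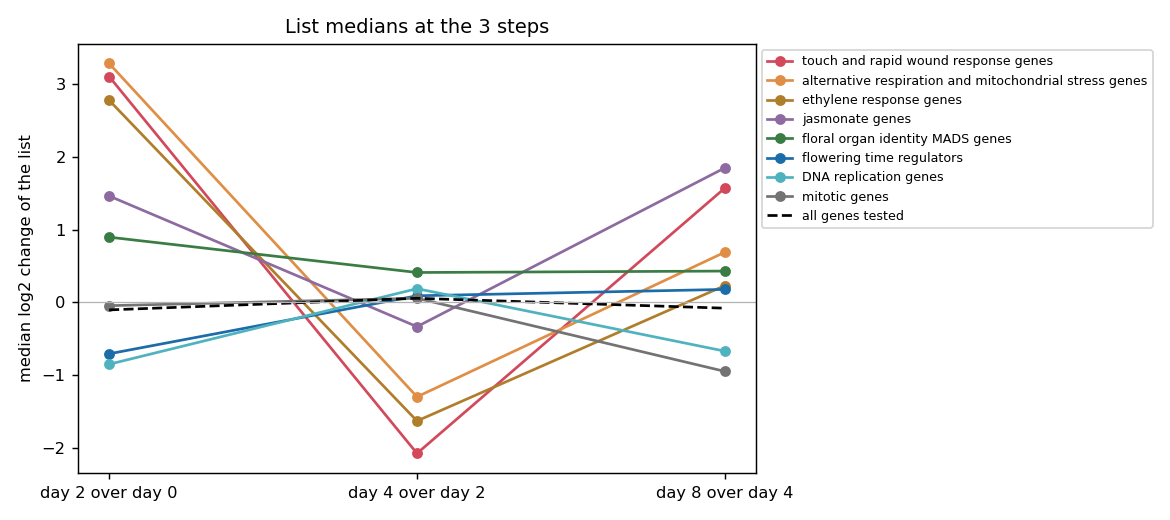
Median log2 change of 8 gene lists (vertical axis) at the 3 steps in time order (horizontal axis), with the median of all genes tested as a dashed line. Touch and wound genes have medians of 3.1, -2.07 and 1.57, organ identity genes of 0.89, 0.41 and 0.43, and neighbouring steps share an extract on opposite sides of their ratios.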

How the data were processed

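RNA of inflorescences was hybridised to 12 Agilent arrays with 2 colours, 4 for each of 3 steps (day 2 over day 0, day 4 over day 2 and day 8 over day 4), with the dyes exchanged between replicates. The authors extracted intensities with Feature Extraction, and the deposited table of log10 ratios (Cy5 over Cy3) was rescaled to log2 with the later day of each step on top. The deposited intensities of the scanner files were used for detection, for bounds and for the intensities printed. A locus was the first 9 characters of the systematic name, and 99.3% of tested loci matched the TAIR10.1 gene table, which gave the symbols. No coordinates were used, since the array was designed on an earlier annotation.

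A probe entered the test if the scanner had marked it well above background in 50% or more of the channels of any time point, counting arrays whose scanner file matched the table, which left 28246 of 43635 probes, 1157 of them without a locus. Outlier spots (739) were left out and no control spot was used. limma 3.58.1 in R 4.3.3 fitted the 3 steps and a dye term over all 12 arrays (8 residual degrees of freedom), with eBayes and trend. P-values are two-sided, adjusted by Benjamini-Hochberg over all probes tested. The number of arrays, 4 for this step, limits the precision. Local backgrounds over 10 times the array median were set to that value before normexp (150 spots in a channel), a choice made after seeing the data. The fit was tested on simulated data. Figures were drawn with matplotlib 3.10.9.

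The genes named are the 15 largest increases and the 15 largest decreases, called and of the same sign on 4 of 4 arrays, and members of gene lists that were called or define the list. The members and the lists were chosen with earlier results of these data known, so counts over a list are descriptions. Alternatives covered the source of the ratios, scaling, filter, arrays in the fit, dye term, replicate block, fold minimum, probe summary and single replicates.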

Additional observations from a re-analysis of the deposited data

Results flagged for a closer look

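In 15 of 185 genes named, 1 of the 4 arrays lay far from the other 3 by Dixon's criterion, which marks about 1 group in 20 by chance. Of these arrays 5 were of replicate 1, 1 of replicate 2, 6 of replicate 3 and 3 of replicate 4. In replicate 1 the log2 ratio was -0.93 for PCNA1 (others -1.34 to -1.31), 1.87 for JAZ1 (3.54 to 3.76), 0.29 for NIT1 (0.62 to 0.68), 4.43 for WRKY75 (6.10 to 6.2) and -1.54 for VSP2 (-0.77 to -0.66). In replicate 2 it was 5.70 for MAPKKK21 (3.3 to 3.5). In replicate 3 it was -0.15 for NAC017 (0.19 to 0.25), 2.45 for MPK3 (1.46 to 1.58), 7.01 for CML41 (5.30 to 5.57), -2.96 for STK (-1.99 to -1.81), -2.10 for TT7 (-1.62 to -1.54) and 5.43 for ERF2 (4.51 to 4.64). In replicate 4 it was -0.50 for FT (-1.55 to -1.48), 3.74 for JAG (4.59 to 4.73) and 4.34 for MAPKKK19 (5.04 to 5.16). Of the called genes among these 15, VSP2 is the one whose call ended without the array in question.

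The change from day 0 to day 2 differed from that between day 4 and day 8 in 3968 genes, 19.0% of those tested, by the contrast within the same fit.

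Probes with no locus in their name stand outside the gene counts. Of the 1157 tested, 189 were called lower (16.3%) and 46 higher (3.98%), with a median change of -0.26, whereas the median over genes was -0.10. What these probes read was not analysed here.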

How the results depend on the processing

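Of 152 called genes named in the text, 111 kept their call under each of 18 alternatives, the fit to all 12 scanner files as deposited not counted. Calls between day 0 and day 2 numbered 1463 with background correction and loess on matching arrays (1160 higher, 303 lower, 2446 differing from the day 4 to day 8 step), where by construction 2 of the 4 arrays remain, and 625 (610, 15 and 1675) with all 12 scanner files, 2 of which do not match the authors' ratios. They numbered 10717 (3816, 6877 and 8609) with no fold minimum. A test against 1.2-fold called 2079 genes lower. Leaving out single replicates gave 2882 to 3097 called, 1728 to 1886 higher, 1153 to 1208 lower and 3767 to 3935 differing between steps. Centring each array gave 2013 higher and 967 lower and ended the calls of LOG7, MYB34, SAP, BOP1, VSP2, SPL3 and YUC2. The correction on matching arrays also gave, against the counts in the report, 1 gene lower in each of the auxin, gibberellin, hypoxia, G1, GRF and flavonoid lists, 1 higher in the flavonoid, clock and aquaporin lists, 2 lower in the jasmonate list, and no root marker or small heat shock gene. With only the 4 arrays the difference between steps could not be fitted.

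The sign turned with background correction on matching arrays in UFO (0.070), WUS (0.020) and CUC2 (0.11). With all 12 scanner files it turned in AP1 (-0.038), SEP4 (-0.049), WUS (0.12), WOX5 (-0.089), XCP1 (0.074), RBCS2B (0.028), CUC2 (0.034), PIN2 (-0.032) and AGL8 (-0.056). It turned with centring in WUS (0.011) and KNAT1 (0.0095), with replicates 1 and 2 alone in UFO (0.018) and CUC2 (0.054), and with replicates 3 and 4 alone in CUC1 (-0.030) and TCH2 (0.26). TCH2 ranged from -0.73 to 0.022 when single replicates were left out. Of these genes RBCS2B, PIN2 and WOX5 were called. The causes were not tested.

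With the replicate set as a block, 3016 genes were called, 1817 higher and 1197 lower, 3891 differed between the steps, and no call of a named gene ended. Deviations of arrays with the same replicate number correlated at -0.13 to 0.04 with the day 2 to day 4 step and at -0.07 to 0.10 with the day 4 to day 8 step, so the numbers were not taken to pair the arrays. Detection at day 0 rests on 2 channels, and 393 higher and 169 lower genes have at most a bound. Of these, 34 higher and 5 lower genes were well above background at neither day and have none.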
